A study of Mus musculus with 7 samples.

Results

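The genes described here are 9 lineage receptors and transcription factors by which macrophages are recognised: Csf1r, Cx3cr1, Adgre1, Ptprc, Spi1, Maf, Cebpa, Cebpb and Aif1. They were taken by name from the deposited table of read counts, and 9 of 9 were found among its 17209 genes. The series measured RNA from muscularis macrophages, the resident macrophages of the gut muscle wall, in C57BL6/J mice. The tested libraries were pMCAO 1, pMCAO 2 and pMCAO 3, from mice 24 h after pMCAO surgery, a model of stroke by the series title. They were set against sham 1, sham 2, sham 3 and sham 4, from mice 24 h after sham surgery. In all 7 libraries the muscle layer was peeled from the whole small intestine and cells positive for CX3CR1-GFP, a green fluorescent reporter of the fractalkine receptor gene, were sorted. The labels name no reporter allele, and no source used here states the age or sex of the animals. The titles call the sham libraries biological replicates and the pMCAO libraries replicates, the description of pMCAO 3 holds the word pool, and the number of animals in a library is not stated. The p-values therefore measure only how far these libraries spread, which may in part be technical.

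Macrophages depend on the growth factor receptor encoded by Csf1r, whose ligands CSF1 and IL-34 keep them alive. The transcription factor PU.1, encoded by Spi1, opens the enhancers of myeloid genes and acts with the C/EBP factors, while c-MAF, encoded by Maf, is known for holding macrophages in a mature, resident state. In the gut wall, macrophages with high levels of the fractalkine receptor lie close to enteric neurons. CD45, encoded by Ptprc, is a tyrosine phosphatase on all nucleated blood cells, so that a comparison of the other genes with Ptprc sets macrophage genes against leukocytes in general. Because the sort was on CX3CR1-GFP, the presence of Cx3cr1 is not a finding.

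The genes lie on different chromosomes and differ in base composition, which bears on their values below. The C/EBP genes Cebpa and Cebpb each have a single exon block and were the most GC-rich, with 62.6% and 67.2% GC in their longest transcripts, while Ptprc had 39.4%. Promoters are shown for Cebpa and Cebpb, which were both lowest in the library pMCAO 3, for Aif1, whose groups did not overlap, and for Ptprc, whose group means lay closest together relative to its level. Each is 300 bases, from 250 before to 50 after a RefSeq start site of GRCm38.p6, written 5′ to 3′ on the gene's strand. Capitals mark GAGGAA, the core bound by PU.1, or TATAAA, the TATA box, on either strand.
Cebpa, chr7:35119043-35119342, plus strand: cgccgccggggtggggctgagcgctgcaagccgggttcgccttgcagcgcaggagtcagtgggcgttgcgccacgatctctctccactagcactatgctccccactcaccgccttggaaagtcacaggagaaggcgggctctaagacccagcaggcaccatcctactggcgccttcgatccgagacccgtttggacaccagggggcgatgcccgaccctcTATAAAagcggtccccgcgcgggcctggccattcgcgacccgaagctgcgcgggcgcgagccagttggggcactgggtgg
Cebpb, chr2:167688665-167688964, plus strand: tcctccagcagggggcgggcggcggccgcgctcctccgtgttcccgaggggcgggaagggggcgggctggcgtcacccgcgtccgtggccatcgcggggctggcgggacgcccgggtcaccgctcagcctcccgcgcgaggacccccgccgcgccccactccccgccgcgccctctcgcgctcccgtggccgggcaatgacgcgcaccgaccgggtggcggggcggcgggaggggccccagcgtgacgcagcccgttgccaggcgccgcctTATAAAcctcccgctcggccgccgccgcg
Aif1, chr17:35176003-35176302, minus strand: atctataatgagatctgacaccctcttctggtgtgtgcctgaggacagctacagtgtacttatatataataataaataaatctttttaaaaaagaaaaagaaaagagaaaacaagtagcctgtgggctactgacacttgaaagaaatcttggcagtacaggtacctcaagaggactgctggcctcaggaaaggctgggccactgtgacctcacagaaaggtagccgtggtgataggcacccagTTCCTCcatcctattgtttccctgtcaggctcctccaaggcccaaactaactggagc
Ptprc, chr1:138175256-138175555, minus strand: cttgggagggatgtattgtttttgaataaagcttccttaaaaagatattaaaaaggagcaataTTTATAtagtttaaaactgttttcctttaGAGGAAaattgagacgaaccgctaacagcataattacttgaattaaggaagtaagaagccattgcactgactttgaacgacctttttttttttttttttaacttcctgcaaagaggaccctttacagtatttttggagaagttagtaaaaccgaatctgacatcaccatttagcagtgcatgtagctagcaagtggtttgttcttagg

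The Cebpa window held TATAAA at position -30 from the start site, and the Cebpb window held it at position 21. The Ptprc window held TATAAA on the opposite strand at position -187 and GAGGAA at position -158, while the window of another RefSeq start of Ptprc, not shown, held neither. The Aif1 window held GAGGAA on the opposite strand at position -7. Of 32851 mouse promoters of the same length, 28.3% held GAGGAA and 13.6% held TATAAA on either strand. The C/EBP site TTGCNNAA, present in 10.8% of promoters, was in none of these 4 windows. The windows were 67.3% GC for Cebpa, 80.7% for Cebpb, 45.0% for Aif1 and 33.7% for Ptprc, which places Cebpb above 99.2% and Ptprc above 2.61% of all promoters. A match of letters is a description and not a binding site. RefSeq promoters were also matched for Cx3cr1, giving 5 of the 9 genes.

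All 9 genes were detected in every library, with the lowest count, 242 reads, for Cebpb in pMCAO 3. Levels are read counts relative to the library total after TMM scaling, which adjusts each library for its composition, on the usual CPM scale. Divided by the exon length in kilobases, Adgre1 and Csf1r were highest, at 319 ± 75.1 and 314 ± 29.8 CPM per kb after pMCAO (SD, n = 3) and 410 ± 83.5 and 401 ± 99.8 CPM per kb after sham surgery (SD, n = 4). Their order is not settled, as their ranges overlapped in both groups and Adgre1 was the higher in 3 of 7 libraries. Maf followed at 163 ± 25.7 CPM per kb after pMCAO and 144 ± 10.8 CPM per kb after sham surgery, below Csf1r in 7 of 7 libraries. It was the highest of the 4 transcription factors. Aif1 had 62.9 ± 25.8 CPM per kb after pMCAO and 103 ± 12.4 CPM per kb after sham surgery, overlapping Ptprc in the sham libraries and Cx3cr1 in the pMCAO libraries.

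Spi1, with 33.8 ± 14.8 CPM per kb after pMCAO and 48.5 ± 5.80 CPM per kb after sham surgery, was lower than Maf in each library. Its range overlapped that of Cx3cr1 in both groups, where Cx3cr1 had 38.8 ± 9.62 and 56.8 ± 8.32 CPM per kb in pMCAO and sham libraries. Cebpb and Cebpa were the lowest, at 17.7 ± 7.48 and 13.1 ± 5.41 CPM per kb after pMCAO and 17.1 ± 2.78 and 17.5 ± 2.60 CPM per kb after sham surgery, and their ranges overlapped. The order of Cebpb and Cebpa differed between libraries, Cebpb being the higher in 4 of 7. The order depended in part on the length used. Over its 18.3 kb of annotated exons Ptprc was rank 4 of the 9. It had 109 ± 4.65 CPM per kb after pMCAO and 110 ± 20.1 CPM per kb after sham surgery. Over its longest transcript of 5740 bases it was rank 3, with a mean of 350 CPM per kb over all libraries. By the longest transcript Csf1r was rank 1, Adgre1 rank 2, Maf rank 4, Spi1 rank 6 and Cx3cr1 rank 7.

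After pMCAO, 0 of the 9 genes passed an adjusted p of 0.05 by the edgeR quasi-likelihood test, against a background of 0.0988% of all genes (0.0697% higher and 0.0291% lower). DESeq2 and limma-voom also called 0 of the 9, where they called 3.07% of the 15512 genes with an adjusted p and 0.203% of all genes. At an unadjusted p under 0.05 by edgeR, 3 were lower (Cx3cr1, Spi1 and Aif1) and 0 higher, against 6.47% of all genes that were lower and 6.97% that were higher by that rule. Log2 changes are pMCAO minus sham. They were below 0 for 7 of the 9 genes, as for 51.4% of all genes, with a median of -0.36 over the 9 and -0.016 over all genes. Only Aif1 had groups that did not overlap, with pMCAO below, as 6.58% of all genes did, and 0 of the 9 had pMCAO wholly above, as 5.99% did.

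**Figure D1:**
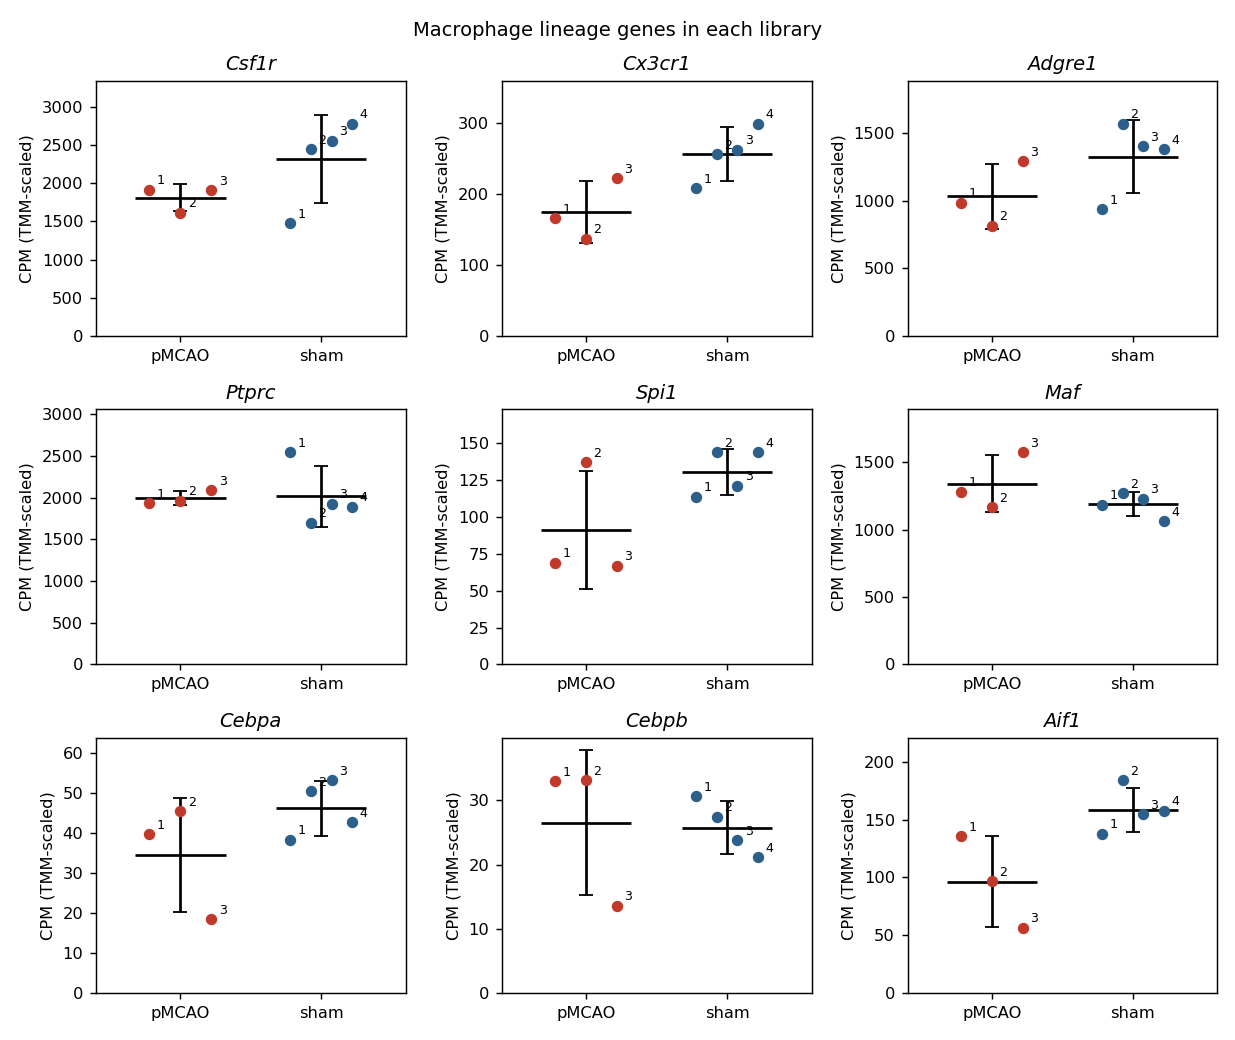
Each panel shows 1 gene, with TMM-scaled CPM on the vertical axis from 0, pMCAO libraries (red) left of sham libraries (blue), replicate numbers beside the points, the mean as a horizontal line and the SD as an error bar. Sham 1 is the lowest of the sham libraries for Csf1r and the highest for Ptprc, and pMCAO 3 is the lowest of all libraries for Cebpa, Cebpb and Aif1.

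Among the receptors, Csf1r (ENSMUSG00000024621, chromosome 18, 61100598 to 61132149, GRCm38) had 1917, 1615 and 1908 CPM in pMCAO 1 to 3 and 1478, 2446, 2557 and 2783 CPM in sham 1 to 4. The pMCAO values lay close together below 3 of the sham libraries, while sham 1 was the lowest of all 7. Between groups the log2 change was -0.35 (SE 0.22, 95% interval -0.81 to 0.11, adjusted p = 0.496), and without sham 1 it was -0.52 (adjusted p = 0.191). A share of 15.1% of the Csf1r exons overlaps Hmgxb3 on the other strand. Hmgxb3 was at 72.6 ± 33.4 CPM after pMCAO and 74.5 ± 20.4 CPM after sham surgery.

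Cx3cr1 (ENSMUSG00000052336, chromosome 9, 119901616 to 120069879), the receptor of fractalkine, had 165, 137 and 222 CPM in pMCAO 1 to 3 and 207, 256, 262 and 299 CPM in sham 1 to 4. The groups overlapped only through pMCAO 3 and sham 1. For Cx3cr1 the log2 change was -0.55 (SE 0.20, 95% interval -0.97 to -0.13, unadjusted p = 0.0141, adjusted p = 0.256 by edgeR), and it lay between -0.76 and -0.40 as each library was left out. Its ligand gene Cx3cl1 was at 2.94 ± 0.573 CPM after pMCAO and 8.78 ± 13.3 CPM after sham surgery. This sham mean rested on sham 1, at 28.7 CPM, against 3.53, 0.605 and 2.31 CPM in sham 2 to 4.

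Adgre1 (ENSMUSG00000004730, chromosome 17, 57358691 to 57483527), which encodes the adhesion receptor F4/80, had 988, 816 and 1296 CPM in pMCAO 1 to 3 and 941, 1574, 1405 and 1384 CPM in sham 1 to 4. Sham 1 was the lowest sham library, as for Csf1r, and lay among the pMCAO libraries. For Adgre1 the log2 change was -0.36 (SE 0.21, 95% interval -0.82 to 0.098, adjusted p = 0.484), and it was -0.21 without pMCAO 2 and -0.56 without pMCAO 3.

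Ptprc (ENSMUSG00000026395, chromosome 1, 138062861 to 138175708) had 1931, 1962 and 2092 CPM in pMCAO 1 to 3 and 2547, 1698, 1928 and 1894 CPM in sham 1 to 4. All pMCAO values lay within the sham range, whose top was sham 1. The estimated log2 change was -0.016 (SE 0.18, 95% interval -0.41 to 0.37, adjusted p = 0.981), and its sign turned with upper-quartile factors and with limma-voom.

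Ratios between genes of the same library do not depend on how libraries are scaled. The ratio of Csf1r to Ptprc was 0.992, 0.823 and 0.912 in pMCAO 1 to 3 and 0.580, 1.44, 1.33 and 1.47 in sham 1 to 4. Sham 1 had the lowest ratio of all 7 libraries, and the other sham libraries lay above each pMCAO library. The difference in mean log2 ratio was -0.32 over all libraries (two-sided exact permutation p = 0.486, adjusted over 5 ratios p = 0.486) and -0.64 without sham 1. The ratio of Adgre1 to Ptprc had the same layout, at 0.511, 0.416 and 0.620 in pMCAO 1 to 3 and 0.369, 0.927, 0.729 and 0.731 in sham 1 to 4. Its difference was -0.36 (exact permutation p = 0.343, adjusted p = 0.429) and -0.64 without sham 1. With an offset per gene and library for base composition and length, described below, both differences turned, to 0.41 and 0.16 (exact permutation p = 0.257 and p = 0.743).

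**Figure D2:**
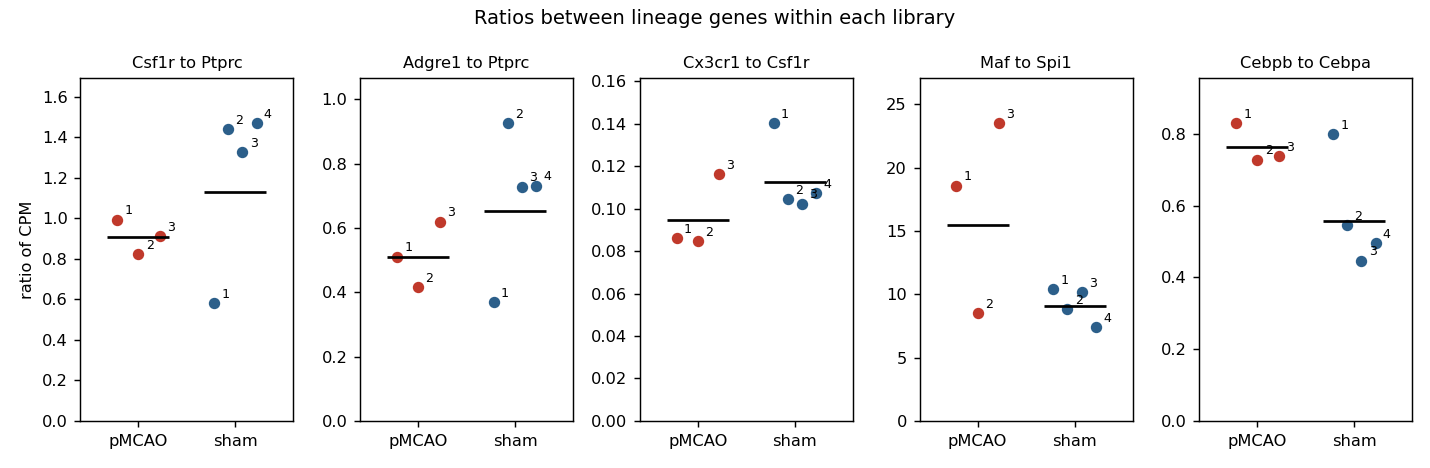
Each panel shows the ratio of the CPM of 2 genes within a library on an axis from 0, with pMCAO libraries (red) left of sham libraries (blue), replicate numbers beside the points and the geometric mean as a line. Sham 1 stands apart from the other sham libraries for Csf1r to Ptprc (0.580), Adgre1 to Ptprc (0.369) and Cx3cr1 to Csf1r (0.140).

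The ratio of Cx3cr1 to Csf1r was 0.0862, 0.0847 and 0.116 in pMCAO 1 to 3 and 0.140, 0.104, 0.102 and 0.107 in sham 1 to 4. Sham 1 was the highest here, and pMCAO 3 lay above the other sham libraries. The difference in mean log2 ratio was -0.25 (exact permutation p = 0.257, adjusted p = 0.429). With the offsets it was -0.38, with no overlap between groups (exact permutation p = 0.0286, the smallest that 7 libraries allow, and 0.143 adjusted over the 5 ratios).

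Among the transcription factors, Spi1 (ENSMUSG00000002111, chromosome 2, 91082390 to 91115756) had 69.0, 137 and 67.0 CPM in pMCAO 1 to 3 and 114, 144, 121 and 144 CPM in sham 1 to 4. Both pMCAO 1 and pMCAO 3 lay well below every sham library, while pMCAO 2 lay inside the sham range. For Spi1 the log2 change was -0.52 (SE 0.24, 95% interval -1.04 to -0.0031, unadjusted p = 0.0488, adjusted p = 0.368 by edgeR). It was -0.94 without pMCAO 2 (adjusted p = 0.0552) and -0.34 without pMCAO 3.

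Maf (ENSMUSG00000055435, chromosome 8, 115682942 to 115707794) had 1282, 1165 and 1576 CPM in pMCAO 1 to 3 and 1186, 1270.0, 1231 and 1064 CPM in sham 1 to 4. The groups overlapped, with pMCAO 1 just above and pMCAO 3 well above the sham range. Its log2 change was 0.18 (SE 0.17, 95% interval -0.19 to 0.54, adjusted p = 0.694). It was 0.043 without pMCAO 3 and 0.046 without scaling factors. The ratio of Maf to Spi1 was 18.6, 8.50 and 23.5 in pMCAO 1 to 3 and 10.4, 8.82, 10.2 and 7.38 in sham 1 to 4. Only pMCAO 1 and pMCAO 3 were above the sham range, and the difference in mean log2 ratio was 0.77 (exact permutation p = 0.143, adjusted p = 0.357). With the offsets it was 0.22.

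Cebpa (ENSMUSG00000034957, chromosome 7, 35119293 to 35121928), the C/EBP factor of early myeloid commitment, had 39.7, 45.4 and 18.4 CPM in pMCAO 1 to 3 and 38.3, 50.5, 53.2 and 42.7 CPM in sham 1 to 4. Only pMCAO 3 was below the sham range. For Cebpa the log2 change was -0.42 (SE 0.28, 95% interval -1.02 to 0.18, adjusted p = 0.536). It was -0.12 without pMCAO 3 and -0.67 without pMCAO 2.

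Cebpb (ENSMUSG00000056501, chromosome 2, 167688915 to 167690418), the C/EBP factor of inflammatory and alternative activation, had 33.0, 33.1 and 13.6 CPM in pMCAO 1 to 3 and 30.6, 27.5, 23.8 and 21.1 CPM in sham 1 to 4. Here pMCAO 1 and pMCAO 2 were just above the sham range and pMCAO 3 was below it. For Cebpb the log2 change was 0.044 (SE 0.30, 95% interval -0.61 to 0.70, adjusted p = 0.969), with 0.36 when pMCAO 3 was left out and -0.14 when pMCAO 1 was left out. A share of 20.7% of the Cebpb exon overlaps Tmem189 on the other strand. Tmem189 was at 41.5 ± 13.8 CPM after pMCAO and 42.4 ± 5.48 CPM after sham surgery. If the counting ignored strand, reads of Tmem189 and Cebpb there cannot be told apart. The ratio of Cebpb to Cebpa was 0.830, 0.728 and 0.738 in pMCAO 1 to 3 and 0.799, 0.545, 0.447 and 0.495 in sham 1 to 4. The groups overlapped through sham 1, and the difference in mean log2 ratio was 0.46 (exact permutation p = 0.114, adjusted p = 0.357). It was 0.63 without sham 1 and 0.51 with the offsets.

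Aif1 (ENSMUSG00000024397, chromosome 17, 35170991 to 35176068) encodes IBA1, a calcium-binding protein of the actin cytoskeleton that is widely used to stain macrophages and microglia. It had 136, 96.9 and 56.6 CPM in pMCAO 1 to 3 and 138, 184, 154 and 158 CPM in sham 1 to 4. The groups did not overlap, although pMCAO 1 and sham 1 almost touched. Its log2 change was the lowest of the 9 at -0.72 (SE 0.25, 95% interval -1.25 to -0.19, unadjusted p = 0.0108, adjusted p = 0.235 by edgeR). It was -1.05 without pMCAO 1 and -0.45 without pMCAO 3, and the adjusted p lay between 0.113 and 0.466 over the alternatives.

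**Figure D3:**
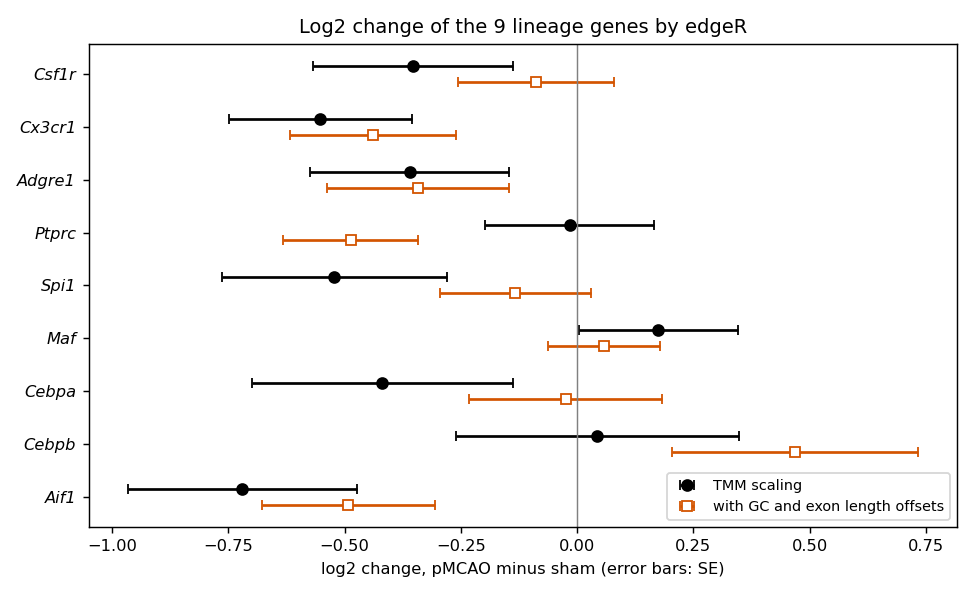
Points give the log2 change (pMCAO minus sham, horizontal axis) of each gene by edgeR with TMM scaling (filled circles) and with the GC and length offsets (open squares), and error bars give the SE. With the offsets Csf1r, Spi1 and Cebpa lie nearer 0, at -0.088, -0.13 and -0.025, while Ptprc lies at -0.49 and Cebpb at 0.47.

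In the library pMCAO 3, the 4 genes farthest below the sham mean were all of GC-rich transcripts with short exons. On the log2 scale Aif1 departed by -1.48, Cebpa by -1.31, Spi1 by -0.96 and Cebpb by -0.91, whereas Csf1r departed by -0.24, Cx3cr1 by -0.19, Adgre1 by -0.0077, Ptprc by 0.069 and Maf by 0.41. The GC content of the longest transcript was 51.4% for Aif1, 62.6% for Cebpa, 58.9% for Spi1 and 67.2% for Cebpb. It was at most 47.4% for Adgre1, Ptprc and Maf and 50.3% for Cx3cr1, while Csf1r, with 54.5%, was GC-rich without such a departure. Over all genes of at least 10 CPM, the median departure in pMCAO 3 was -0.55 in the GC-rich tercile of genes (51.1% GC or more) and 0.37 in the GC-poor tercile of genes. It was -0.42 in the tercile with the shortest exons (up to 3547 bases), where Aif1 (1532 bases), Cebpb, Cebpa, Spi1 and Adgre1 fall. The GC-rich tercile had medians of -0.27 in pMCAO 1, -0.085 in pMCAO 2, -0.19 in sham 1 and between 0.0075 and 0.14 in sham 2 to 4.

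Offsets were then fitted to take out the dependence on GC and length in every library. With them the log2 changes were -0.088 for Csf1r (SE 0.17), -0.13 for Spi1 (SE 0.16), -0.025 for Cebpa (SE 0.21), 0.47 for Cebpb (SE 0.26) and -0.49 for Ptprc (SE 0.15, unadjusted p = 0.00518, adjusted p = 0.233 by edgeR). Ptprc lies at the edge of both trends, as it has more annotated exon sequence than 98.7% of the genes and a lower GC content than all but 6.83%. Aif1 was at -0.49 (SE 0.19), against -0.72 without the offsets, and Cx3cr1 at -0.44 (SE 0.18), against -0.55. Adgre1 was at -0.34 (SE 0.20) and Maf at 0.058 (SE 0.12). With the offsets 0 of the 9 passed an adjusted p of 0.05.

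**Figure D4:**
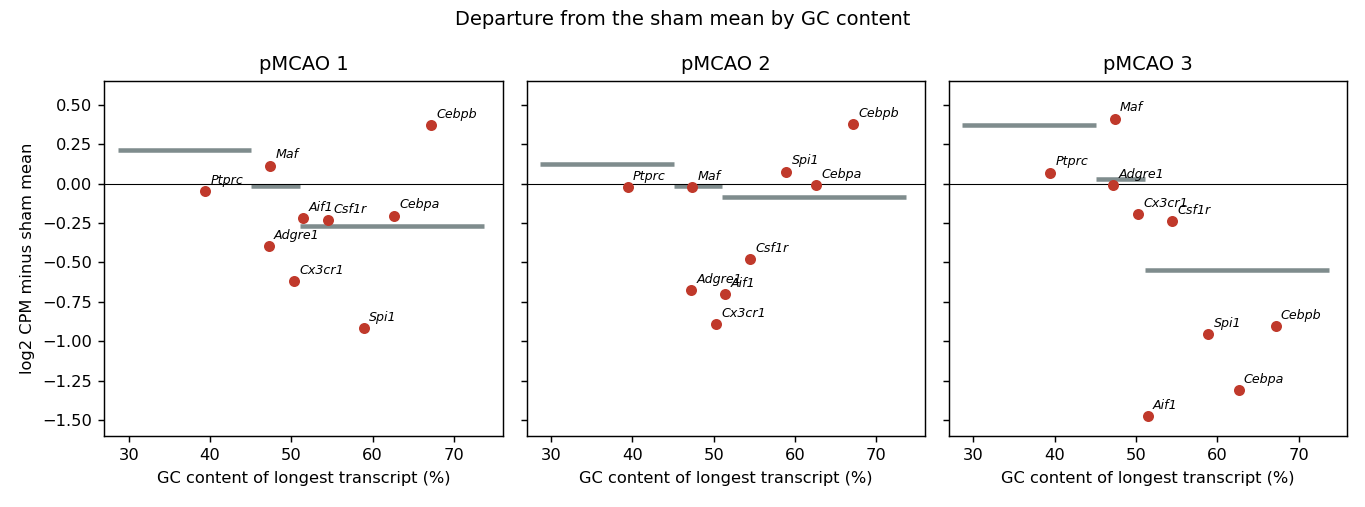
Each panel shows a pMCAO library, with the GC content of the longest transcript on the horizontal axis and log2 CPM minus the mean of the sham libraries on the vertical axis. Red points are the 9 genes and grey bars the median over all genes of at least 10 CPM in each tercile of GC content, which in pMCAO 3 is 0.37 in the GC-poor and -0.55 in the GC-rich tercile.

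Genes that act with these 9 were described from lists. Of 24 measured transcription factors of the macrophage and myeloid lineage, 0 passed by edgeR or limma-voom and 1 by DESeq2 (Gata2), against 3.07% of its genes, with 3 higher and 3 lower at an unadjusted p under 0.05 (6.97% and 6.47% of all genes) and a median log2 change of 0.035. Klf4, a factor of monocyte differentiation, was at 519.6 ± 63.3 CPM after pMCAO and 350.2 ± 57.6 CPM after sham surgery (log2 change 0.57, SE 0.18, adjusted p = 0.192), with no overlap between groups. Batf3, known for its role in dendritic cells, was at 12.9 ± 5.22 and 25.9 ± 5.10 CPM in pMCAO and sham libraries (log2 change -1.01, adjusted p = 0.192). Gata2, a factor of blood progenitors and mast cells, was at 8.34 ± 4.19 and 1.98 ± 1.38 CPM in pMCAO and sham libraries.

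Around the CSF1 receptor, mean levels were lower for 12 of 17 measured pathway genes, as for 51.4% of all genes, with a median of -0.30 in log2 change and -0.016 over all genes. By edgeR and limma-voom 0 passed and by DESeq2 1 passed (Plcg2), against 3.07% of its genes, with 7 lower and 1 higher at an unadjusted p under 0.05 (6.47% and 6.97% of all genes). Plcg2, a phospholipase that carries the receptor's signal, was at 62.3 ± 4.08 CPM after pMCAO and 99.8 ± 6.27 CPM after sham surgery (log2 change -0.68, SE 0.17, adjusted p = 0.127). Pik3cd, the leukocyte PI3 kinase subunit, was at 104 ± 24.2 and 158 ± 10.8 CPM in pMCAO and sham libraries. The ligand gene Csf1 was low, at 7.46 and 9.13 CPM in pMCAO and sham libraries. Il34 was not listed.

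Another list of 20 measured genes held relatives from the same gene families, together with the ligand gene Cx3cl1 and the CD45-associated Ptprcap. In this list 0 passed by edgeR, DESeq2 or limma-voom and 0 had an unadjusted p under 0.05 by edgeR. The median log2 change was 0.00076. The smallest p belonged to Adgre5, the CD97 relative of F4/80, at 194 ± 88.4 CPM after pMCAO and 278 ± 62.1 CPM after sham surgery (log2 change -0.52, adjusted p = 0.422). Cebpg, a C/EBP protein without an activation domain, was at 201 ± 55.0 and 169 ± 29.2 CPM in pMCAO and sham libraries.

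Of 24 other general macrophage markers, 24 were listed and 19 had lower means, as had 51.4% of all genes, and their median log2 change was -0.29. By edgeR and limma-voom 0 passed and by DESeq2 5 (Fcgr1, C1qa, C1qb, C1qc and Lst1), where DESeq2 called 3.07% of its genes, with 7 lower and 2 higher at an unadjusted p under 0.05 (6.47% and 6.97% of all genes). C1qa, a complement chain made by resident macrophages, was at 279 ± 76.9 CPM after pMCAO and 546 ± 104 CPM after sham surgery (log2 change -0.97, SE 0.22, adjusted p = 0.0952). C1qb, a chain of the same complex, was at 1646 ± 542 CPM and 3125 ± 647 CPM in pMCAO and sham libraries, and Fcgr1, the high-affinity IgG receptor, at 135 ± 30.5 and 230.4 ± 46.1 CPM. Mrc1, the mannose receptor of resident macrophages, was at 5389 CPM after pMCAO and 5235 CPM after sham surgery. The 2 higher markers were Mertk and Cd163. Mertk was at 516 ± 66.5 and 354 ± 97.2 CPM in pMCAO and sham libraries (log2 change 0.54, adjusted p = 0.272 by edgeR). Cd163 was at 2463 ± 601 and 1675 ± 404 CPM (log2 change 0.56, adjusted p = 0.295 by edgeR).

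Markers of other cells were measured in the same libraries as a check of purity. T and NK cell markers (11 of 11 listed) summed to between 26.8 and 87.7 CPM after pMCAO and between 30.4 and 89.7 CPM after sham surgery, at most 5.28% of Ptprc in any library. Neutrophil markers (4 of 8 listed) summed to at most 29.6 CPM after pMCAO and 60.8 CPM in sham 1. The B and plasma cell markers (7 of 7 listed) summed to between 192 and 391 CPM after pMCAO, 3170 CPM in sham 1 and between 63.8 and 428 CPM in sham 2 to 4. Sham 1, which had the lowest Csf1r and the highest Ptprc, thus also had the highest sum of B and plasma cell markers, led by the immunoglobulin chain Igkc at 2017 CPM against at most 269 CPM in the other libraries. Monocyte markers (6 of 6 listed) summed to 1203, 1156 and 616 CPM in pMCAO 1 to 3 and 1418, 716, 589.6 and 607 CPM in sham 1 to 4, led by the chemokine receptor Ccr2. The part of these cells in the Csf1r and Ptprc values of sham 1 was not tested. Set against Ptprc in the same way, neutrophil markers were at most 2.39% in any library. Monocyte markers were between 29.5% and 62.3% of Ptprc, and B and plasma cell markers between 3.37% and 124%. Fibroblast and dendritic cell markers, described below, reached 24.3% and 19.6% of Ptprc in their highest libraries.

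**Figure D5:**
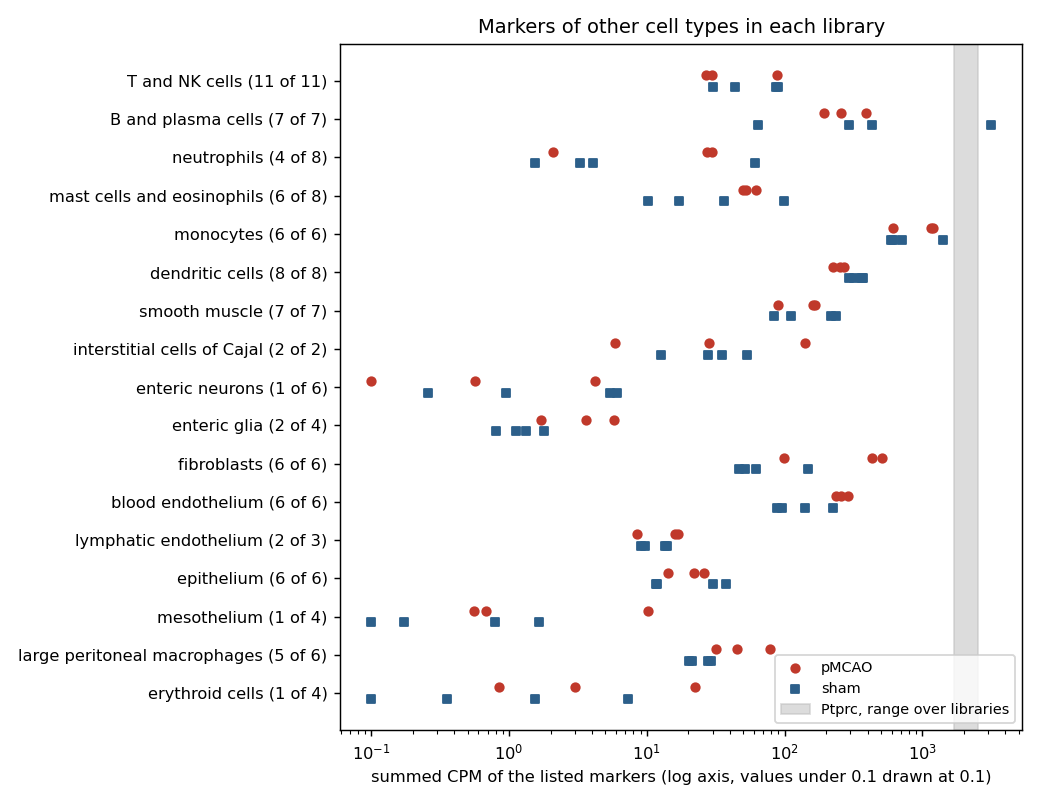
Summed CPM of marker genes of other cell types (log axis) in each library, with pMCAO libraries as red circles above sham libraries as blue squares, the number of listed markers in brackets and the range of Ptprc as a grey band. The B and plasma cell markers reach 3170 CPM in sham 1, and the fibroblast markers exceed 400 CPM in 2 pMCAO libraries.

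The sums of 3 of the cell type lists did not overlap between groups. Among all single genes 12.6% did not overlap in either direction, a share that may differ for sums of several genes. The sums of fibroblast markers overlapped through pMCAO 2. Blood endothelial markers (6 of 6 listed) summed to between 235 and 290.3 CPM after pMCAO and between 88.1 and 225 CPM after sham surgery. Pecam1, which led this sum, Cdh5 and Kdr had pMCAO wholly above sham, as 5.99% of all genes did. Vwf, Tie1 and Egfl7 overlapped. Large peritoneal macrophage markers (5 of 6 listed, without the defining factor Gata6) summed to between 31.8 and 78.0 CPM after pMCAO, highest in pMCAO 2, and between 20.1 and 29.4 CPM after sham surgery. Prg4 led this sum, at 30.2 ± 15.9 and 7.59 ± 2.63 CPM in pMCAO and sham libraries, and alone in the list did not overlap between groups. Icam2 (5.45 and 6.79 CPM), Garnl3 (8.46 and 8.24 CPM), Alox15 (6.25 and 1.68 CPM) and Selp (1.27 and 0.303 CPM) overlapped. The mean of Alox15 after pMCAO was led by pMCAO 2, at 14.8 CPM. Fibroblast markers (6 of 6 listed) summed to 432, 99.4 and 507 CPM in pMCAO 1 to 3 and 46.9, 148, 51.8 and 61.5 CPM in sham 1 to 4. Of the fibroblast genes, Col1a2 and Pdgfra had pMCAO wholly above sham, pMCAO 2 included, while Col1a1, Col3a1, Dcn and Lum overlapped. The libraries pMCAO 1 and pMCAO 3, with the highest fibroblast sums, were those with the lowest Spi1. The sum of dendritic cell markers (8 of 8 listed) went the other way, with between 223 and 271 CPM after pMCAO and between 294 and 371 CPM after sham surgery, led by Siglech. Each of these 8 genes overlapped between groups. Siglech (133 and 173 CPM in pMCAO and sham libraries), Cd209a (43.5 and 87.0 CPM), Flt3, Xcr1 and Itgae had lower means after pMCAO. Zbtb46 (27.9 and 27.2 CPM), Clec9a (14.1 and 10.8 CPM) and Ccr7 (3.64 and 2.61 CPM) did not. The share of counts from the mitochondrial ribosomal RNAs was between 8.26% and 12.6% after pMCAO and between 2.42% and 5.82% after sham surgery, with sham 1 the highest sham library. The part of these in the levels of the 9 genes was not tested, and fewer cells of a type cannot be told apart from less RNA per cell.

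The remaining sums also overlapped between groups. Smooth muscle markers (7 of 7 listed) lay between 89.9 and 166 CPM after pMCAO and between 84.0 and 235 CPM after sham surgery, and markers of interstitial cells of Cajal (2 of 2 listed) between 5.84 and 141 CPM after pMCAO and between 12.7 and 52.9 CPM after sham surgery. Mast cell and eosinophil markers (6 of 8 listed) lay between 50.3 and 62.5 CPM after pMCAO and between 10.2 and 98.3 CPM after sham surgery. Epithelial, lymphatic endothelial, neuronal, glial, mesothelial and erythroid markers summed to at most 37.5 CPM in any library, and 0 of 4 adipocyte markers were listed.

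The genes that varied most like each of the 9 over the 7 libraries were found by Pearson's r of log2 CPM among 9363 other genes of at least 10 CPM, given as a description with no test. For Csf1r they were Lpcat2 (r = 0.99) and Slco2b1 (r = 0.98), and for Cx3cr1 Mettl3 (r = 0.99) and Ddx55 (r = 0.99). For Adgre1 they were Rpa2 (r = 0.97) and Itga9 (r = 0.95), and for Ptprc Adamdec1 (r = 0.97) and Ppwd1 (r = 0.97). For Spi1 they were Upf1 (r = 0.99) and Gmfg (r = 0.99), for Maf Epm2aip1 (r = 0.98) and Adam10 (r = 0.97), for Cebpa Mrps28 (r = 0.99) and Akr1a1 (r = 0.99), for Cebpb Mrpl33 (r = 0.99) and Gm14539 (r = 0.97), and for Aif1 Pdia3 (r = 0.99) and Ndufb9 (r = 0.99). The number of genes with r above 0.9 was 287 for Aif1, 276 for Cebpa and 236 for Spi1, and between 21 and 78 for the other 6. Cebpb, low in pMCAO 3 like these 3 genes, had 54. The points share library depth and base composition trends.

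The authors' deposited table lists a log2 fold change of -1.08 for Spi1 (FDR 0.144), -1.12 for Aif1 (FDR 0.189) and -0.98 for Cebpa (FDR 0.240). For Ptprc the authors' deposited table gives 0.24 (FDR 0.555) and for Cebpb -0.47 (FDR 0.604). In the list the authors' deposited table gives, an FDR under 0.05 was reached by 14 genes in all and by 0 of these 9.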

How the data were processed

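RNA was taken from sorted CX3CR1-GFP+ muscularis macrophages 24 h after pMCAO (3 libraries) or sham surgery (4 libraries), with groups and numbers read from the titles. Libraries were made with the Trio kit from 2.0 ng of RNA, ribosomal RNA was removed by cleavage and fragments were sequenced from both ends, per the labels' protocols. Reads carry no molecular identifiers, so counting errors are understated and the spread between libraries was used. The single table holds read counts made by the authors, with STAR, featureCounts and limma and GRCm38 (mm10) named per the submitters' processing notes. The versions, the strand setting and the annotation are not stated in any source used here. The deposited CPM values equal counts divided by the library total, to within 0.0005. The log2 fold changes, mean log2 expression, p-values and FDR in the deposited table are the authors'. Library totals were between 12685941 and 21680302 counts after pMCAO and between 18873893 and 34432716 after sham surgery.

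Counts were tested with edgeR 4.0.16 in R 4.3.3 (TMM factors, filter by expression, which kept all 17209 genes, robust quasi-likelihood F test, Benjamini-Hochberg over all genes, threshold 0.05). SE is the log2 change divided by the square root of F. The fit was tested on simulated data. The biological coefficient of variation was 43.6%. For ratios, a two-sided exact permutation test counted absolute differences at least as large over 35 splits. Positions, exon lengths and GC content came from GENCODE M21 (GRCm38). Of the deposited identifiers, 99.5% have the chromosome that it gives. Promoters came from RefSeq. DESeq2 1.42.0 and limma 3.58.1 were alternatives, with other scaling, filters, a replicate block and each library left out. Offsets for GC and exon length (mgcv 1.9.3, fitted on genes of at least 5 CPM) were added after seeing the data. The genes and lists were chosen with earlier results of these data known. From each related list the genes with the 3 smallest p were named, except for a result that is not reported here, and others given as examples were chosen after their values were seen. From some of the marker lists the gene with the highest level was named, and further markers were named after their values were seen. For each of the 9 genes the 2 nearest by correlation were named.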

Additional observations from a re-analysis of the deposited data

Results flagged for a closer look

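In 6 of 32 sets of sham values a single library lay far from the other 3. The measure was the gap to the nearest library divided by the whole range, set against Dixon's critical value. Chance flags about 1 in 20 sets of independent, normally distributed values. The sets here share libraries and in part genes, and CPM values were used without logs. The count of 6 therefore cannot be set against that rate. For the Csf1r to Ptprc ratio the quotient was 0.889, with sham 1 low, and for the Cx3cr1 to Csf1r ratio it was 0.852, with sham 1 high. Sham 1 was also the library far above the others for the summed markers of B and plasma cells (0.883), neutrophils (0.957) and monocytes (0.847). For fibroblast markers sham 2 was the high library (0.856). Groups of 3 libraries were not examined in this way.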

How the results depend on the processing

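Over 16 alternatives for each of the 9 genes, 0 of 144 values passed an adjusted p of 0.05, and 134 kept the sign. The log2 change of Ptprc turned to 0.027 with upper-quartile factors and 0.0022 with limma-voom, and lay between -0.090 and 0.12 as each library was left out, positive without pMCAO 1 or sham 1. That of Cebpb turned to -0.081 without scaling factors, -0.051 with limma-voom and -0.14 with the replicate block, and lay between -0.15 and 0.36 as each library was left out, negative without pMCAO 1, pMCAO 2 or sham 4. The ratios of Csf1r to Ptprc and Adgre1 to Ptprc turned to 0.41 and 0.16 with the GC and length offsets. The other ratios kept their direction. Over all genes, the count of 17 calls was 476 with DESeq2, 75 over genes of at least 5 CPM, 35 with limma-voom, 34 with upper-quartile factors, 33 with the offsets and 29 without scaling factors, which moved the median of all genes to -0.14. It lay between 0 (without pMCAO 1, with 1987 genes below an unadjusted p of 0.05 by edgeR) and 100 (without pMCAO 2) as each library was left out, with 7 without pMCAO 3, 47 without sham 1, 47 without sham 2 and 9 without sham 4. It was 21 with the replicate block. Libraries with the same number had r of -0.095, -0.0016 and 0.15 over genes in their deviations from the group means. Not every library correlated best with its own number, although pMCAO 3 and sham 3 did. So few libraries cannot decide whether those with the same number were handled together. The causes were not tested. With 3 and 4 libraries the 95% intervals still hold changes such as -0.81 for Csf1r.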
